A study of Homo sapiens with 6 samples.

Results

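The insulin-like growth factor (IGF) system was followed here through 10 genes: the ligands IGF1 and IGF2, the receptor IGF1R, and the binding proteins IGFBP1 to IGFBP7. They were taken by name from a table of 34692 gene rows, and the set was chosen from the values of these same arrays, in the comparison of isthmic organizer-like cells with control neural cells. The differences of these 10 genes in that comparison are therefore given as a description, and nothing is read from the test calls counted for them below.

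IGF1 and IGF2 are small secreted hormones related to insulin. They bind the receptor tyrosine kinase IGF1R, which signals through IRS and SHC adaptors to the PI3K and AKT branch and to the RAS and MAP kinase branch, and so promotes growth, survival and proliferation. IGFBP1 to IGFBP6 hold IGFs with high affinity outside the cell, where they can withhold the ligand from the receptor or carry it, and proteases release it. IGFBP7 binds IGFs weakly. In the developing brain IGFs act on neural progenitors, and IGFBP2 and IGFBP5 are well known there.

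Both groups came from H9, an established human embryonic stem cell line, differentiated as embryoid bodies with 5 µM dorsomorphin (a BMP receptor inhibitor) and 10 µM SB431542 (an inhibitor of activin and TGF-β receptors) over the first 4 days. The bodies were plated at day 4 and cultured for 5 more days. The 3 isthmic organizer-like samples (IsO) also received 100 ng/ml FGF8 and the GSK3 inhibitor CHIR99021, for which the labels give a range of 0 to 1.2 µM and not the dose of the arrayed cells. The 3 control neural samples (Control) are labelled without these additions. In the embryo the isthmic organizer forms where midbrain meets hindbrain and patterns the tissue on both sides. All cells come from 1 line, and the labels do not say whether replicates were separate cultures, so p-values reflect only how much these samples varied, and that variation may be technical.

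Each sample was hybridised to 1 Illumina bead array, on which probe brightness stands for RNA level. Levels below are background-corrected, quantile-normalised log2 intensities, and n is 3 arrays per group throughout. A row was tested if its detection p-value, the deposited comparison with the array's negative controls, was below 0.05 on at least 3 of 6 arrays. That left 14548 rows, and their median IsO minus Control difference was -0.01. Between 13999 and 15232 rows per array were above background. The arrays numbered 1 stood apart in both groups: their median correlations with the other arrays were 0.923 (IsO) and 0.944 (Control), and the remaining 4 arrays lay between 0.964 and 0.966. Results that rest on them are also given from the arrays numbered 2 and 3. The labels were checked on marker genes: isthmus markers had summed intensities of 11411 to 16212 on IsO arrays and 1116 to 1304 on Control arrays, with 5 of 6 tested genes higher, while PAX5 was above background on no array. Forebrain markers summed to 170 to 202 on IsO arrays and 13628 to 20083 on Control arrays, with 6 of 6 tested genes lower.

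In IsO cells IGFBP3 stood lower than in Control cells on every array, by far the largest difference among the 10 genes. IGFBP2 and IGFBP7 stood modestly higher on every IsO array than on any Control array. IGF1R, IGFBP4 and IGFBP5 were above background on all arrays with overlapping groups, and neither ligand was above background anywhere. The plot of levels by array shows all 10 genes.

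**Figure D1:**
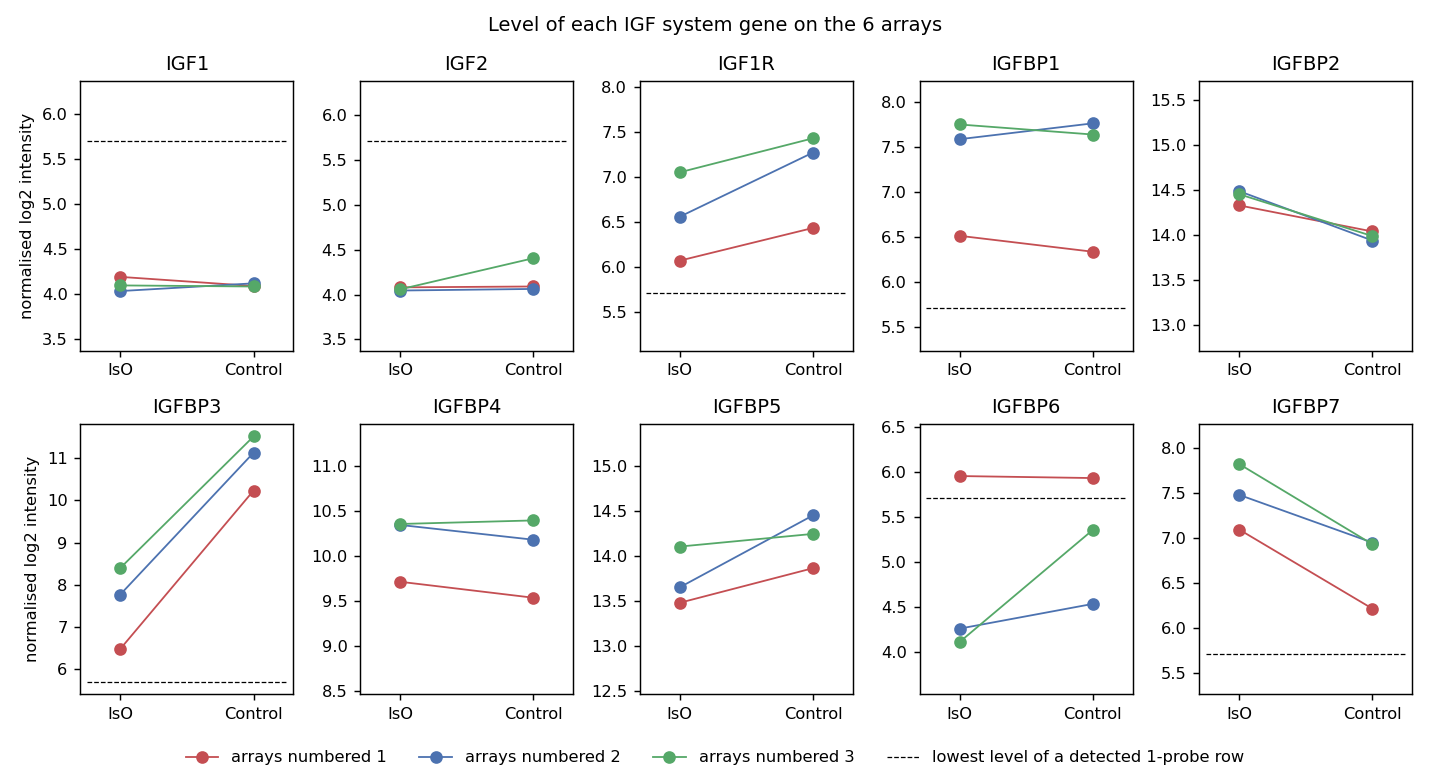
Normalised log2 intensity (vertical axes, each panel with its own range) of the 10 genes on the 6 arrays, with IsO left of Control and lines joining arrays of the same number. The dashed line is the mean over arrays of the lowest level of a detected 1-probe row. IGFBP3 lies between 6.48 and 8.40 on IsO arrays and between 10.23 and 11.52 on Control arrays.

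The sequence around the start of IGFBP3 is shown because this gene carries the largest difference. CCN2, a secreted relative, is shown beside it as the gene of the wider pathway that passed the test as lower. The 300 bases run from 250 before the start site to 50 after it, 5′ to 3′ on the gene's strand, and were taken from RefSeq on GRCh38.p14. IGFBP3 lies at chr7:45921223-45921522 and CCN2 at chr6:131951323-131951622, both on the minus strand. Capitals mark matches, on either strand, to the TATA box TATAAA, the GC box GGGCGG, the TCF/LEF core CTTTGA and the TEAD core GGAATG.
IGFBP3: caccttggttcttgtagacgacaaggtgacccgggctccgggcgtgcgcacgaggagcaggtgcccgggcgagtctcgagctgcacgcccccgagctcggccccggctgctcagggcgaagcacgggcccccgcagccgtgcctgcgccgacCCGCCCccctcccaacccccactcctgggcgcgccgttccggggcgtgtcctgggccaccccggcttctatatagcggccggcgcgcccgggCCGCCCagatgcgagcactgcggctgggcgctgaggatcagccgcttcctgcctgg
CCN2: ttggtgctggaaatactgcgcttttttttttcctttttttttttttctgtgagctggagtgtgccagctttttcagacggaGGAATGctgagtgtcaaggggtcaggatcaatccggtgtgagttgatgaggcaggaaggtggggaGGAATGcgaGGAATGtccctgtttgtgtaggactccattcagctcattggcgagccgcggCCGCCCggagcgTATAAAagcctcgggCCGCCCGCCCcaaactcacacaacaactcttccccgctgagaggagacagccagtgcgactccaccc
The IGFBP3 window held 2 GC boxes, at positions -98 and -6 from the start site, and its GC content was 74.7%. The CCN2 window held 1 TATA box, 3 GC boxes of which the last 2 overlap, and 3 TEAD cores, at positions -169, -104 and -95, with a GC content of 54.3%. Of the 35116 RefSeq promoter windows of this length, 45% held a GC box, 11.5% a TATA box, 12.9% a TCF/LEF core and 14% a TEAD core. These matches are letters only and say nothing of binding. Only the exact letters were searched, so variants such as the tatata in the IGFBP3 window are not marked. Windows were matched for 7 of the 10 genes, and IGF2, IGFBP1 and IGFBP7 had no entry. In the RefSeq gene order IGFBP1 and IGFBP3 neighbour each other on chromosome 7, and IGFBP2 and IGFBP5 on chromosome 2.

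The ligand rows stayed at the level of the negative controls. IGF1, the ligand best known as the mediator of growth hormone, had levels of 4.19, 4.03 and 4.10 on the IsO arrays and 4.09, 4.12 and 4.08 on the Control arrays, with detection p-values of 0.432 to 0.939. IGF2, the ligand prominent in fetal growth, had 4.08, 4.04 and 4.06 on the IsO arrays and 4.09, 4.06 and 4.40 on the Control arrays, with detection p-values of 0.315 to 0.930. No fold is given for either, since both groups were not above background. Their rows combine several probes, for which the deposited p-values run on another scale than those of 1-probe rows.

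IGF1R, the tyrosine kinase that binds both ligands, was above background on all 6 arrays. Its level was 6.07, 6.56 and 7.05 on the IsO arrays and 6.43, 7.27 and 7.43 on the Control arrays. The deposited intensities were 189, 197 and 239 for IsO and 188, 259 and 268 for Control. The groups overlapped, although IsO was lower in each same-numbered pair. The mean difference was -0.49 (SE 0.37).

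IGFBP3, the main carrier of IGFs in blood and a binding protein that can hold IGFs from their receptor, was the gene with the lowest levels in IsO relative to Control. Its level was 6.48, 7.77 and 8.40 on the IsO arrays, against 10.23, 11.13 and 11.52 on the Control arrays. The deposited intensities were 221, 305 and 429 in IsO cells and 1177, 2467 and 3071 in Control cells. The highest IsO array lay below the lowest Control array, and within each group the array numbered 1 was the lowest. IGFBP3 averaged 7.55 ± 0.98 in IsO cells and 10.96 ± 0.66 in Control cells (SD, n = 3 each), a difference of -3.41 (SE 0.56) or 10.6-fold less. The 3 same-numbered pairs differed by -3.75, -3.36 and -3.12. The difference ranked 21 from the lowest of the 14548 tested rows and was -3.36 on the arrays numbered 2 and 3. In a bulk sample, fewer cells that express a gene and less of its RNA per cell cannot be told apart. The row combines several probes, whose separate values were not analysed here.

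IGFBP2, a binding protein abundant in neural progenitors, gave intensities of 21964, 22468 and 23347 on the IsO arrays and 15159, 16238 and 16314 on the Control arrays. On the normalised scale these were levels of 14.33, 14.49 and 14.45 in IsO cells and 14.04, 13.94 and 13.99 in Control cells. Every IsO array stood above every Control array, and the spread within each group was small. The difference was 0.44 (SE 0.17), or 1.35-fold, with pair differences of 0.29, 0.55 and 0.47, and it was 0.49 on the arrays numbered 2 and 3.

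IGFBP7, the low-affinity relative that is also a component of the extracellular matrix, had levels of 7.09, 7.48 and 7.82 on the IsO arrays and 6.21, 6.95 and 6.93 on the Control arrays. Its deposited intensities were 291, 269 and 323 in IsO cells and 175, 229 and 222 in Control cells. Its groups did not overlap, with a gap narrower than the spread within either group. The difference was 0.77 (SE 0.30), or 1.70-fold, and 0.70 on the arrays numbered 2 and 3.

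IGFBP5, a binding protein that attaches to the extracellular matrix, was bright in both groups. Its level was 13.48, 13.66 and 14.11 on the IsO arrays and 13.87, 14.46 and 14.25 on the Control arrays. The groups overlapped while each pair was lower in IsO, and the difference was -0.44 (SE 0.26). IGFBP4, an inhibitory binding protein cut by the protease PAPPA, had levels of 9.72, 10.35 and 10.36 on the IsO arrays and 9.54, 10.18 and 10.40 on the Control arrays. Its groups covered nearly the same range, and the difference was 0.10 (SE 0.31).

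IGFBP6, which prefers IGF2, was above background only on the arrays numbered 1, with levels of 5.95, 4.25 and 4.11 on the IsO arrays and 5.93, 4.53 and 5.35 on the Control arrays. IGFBP1, best known as a liver product under insulin control, had levels of 6.51, 7.59 and 7.75 on the IsO arrays and 6.34, 7.76 and 7.64 on the Control arrays. Its combined row reached the signal of a detected 1-probe row on all 6 arrays, but its detection p-values were 0.127 to 0.335, so it was not counted as above background. Both genes were left out of the tests, and their groups overlapped.

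Of the 10 genes, 6 entered the tested rows. In those 6 the groups did not overlap for 2 higher genes (IGFBP2 and IGFBP7) and 1 lower gene (IGFBP3). Over all tested rows, 8.2% were higher and 7.24% lower without overlap. IsO was higher in all 3 same-numbered pairs for IGFBP2 and IGFBP7 and lower in all 3 for IGFBP3, IGFBP5 and IGF1R, and 23.1% and 25.1% of all rows did the same. With limma's moderated test and Benjamini-Hochberg adjustment over all rows, 0 of the 6 were called higher and 1 lower (IGFBP3), where 0.763% and 0.481% of rows were called in those directions. The IGFBP3 call was near the threshold: it was made in 10 of 18 other settings and absent in 8, namely with the background from all rows, with no filter on dim rows and without any 1 of the 6 arrays. IGFBP2 was also called higher in 1 setting, a variance trend in eBayes. Since this contrast chose the genes, nothing is read from these counts. The median difference of the 6 was -0.17.

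**Figure D2:**
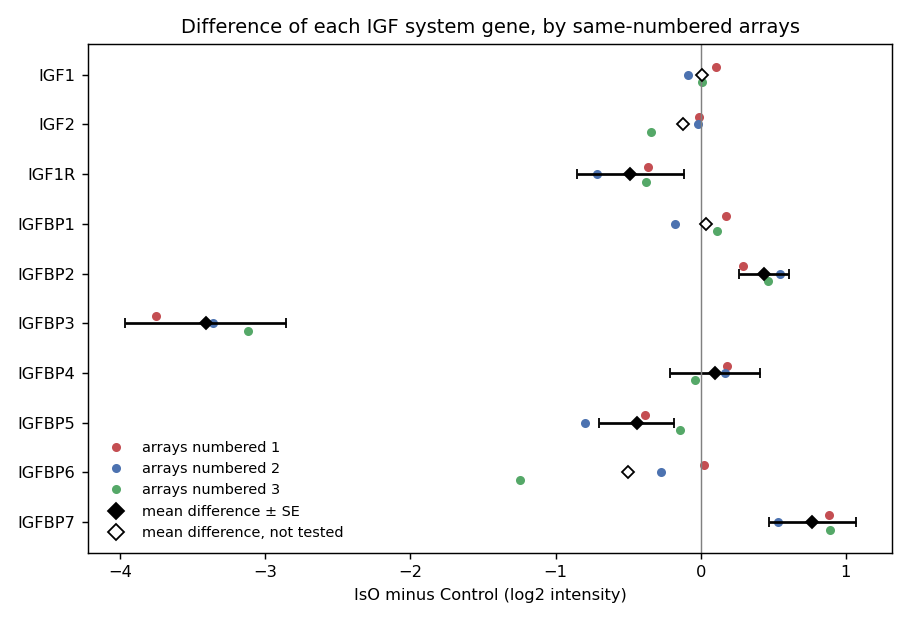
IsO minus Control difference in log2 intensity (horizontal axis) for each of the 10 genes (rows). Coloured points are same-numbered pairs, and diamonds are means, filled with ± SE bars where the row was tested and open where it was not. The IGFBP3 pairs lie at -3.75, -3.36 and -3.12, and the IGFBP2 pairs at 0.29, 0.55 and 0.47.

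Deviations that same-numbered arrays share across both groups can be tested apart from the choice of genes. Spread that they do not share is not measured this way. The numbers are taken as given, although the correlations do not establish the arrays numbered 2 and 3 as pairs. A moderated F test over the 3 array numbers, with group in the limma model, called 2 of the 6 tested genes, IGFBP3 (adjusted p = 0.0363) and IGF1R (adjusted p = 0.0466), against 16.9% of all rows. The arrays numbered 1 minus the mean of the others gave -1.35 for IGFBP3 and -0.83 for IGF1R, so both genes were lower there. IGFBP4 (adjusted p = 0.0548), IGFBP7 (0.0742), IGFBP5 (0.237) and IGFBP2 (0.979) did not pass the F test. The 2 calls depended on the processing: the F test called 0 genes with the background taken from all rows or with no filter on dim rows, 1 with cyclic loess, and up to 3 elsewhere.

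The rest of the pathway was described with 70 other genes listed by role. Of these, 45 were tested, 1 was called higher (H19) and 1 lower (CCN2), and 43 were not called. The same fit called 0.763% of all rows higher and 0.481% lower. At an unadjusted p below 0.05 there were 11 of the 45 genes, where 9.84% of all rows passed, and the median difference was 0.06, against -0.01 over all rows. With the array number as a block, 2 were higher (H19 and STC1) and 3 lower (CCN1, CCN2 and PIK3R3), where 2.44% and 1.94% of rows were called. Most of the receptor and intracellular machinery therefore did not pass the test in either direction, which does not show that it was equal.

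CCN2 (listed as CTGF), a secreted matrix-associated protein whose first domain resembles that of the IGFBPs, fell in IsO cells. Its level was 11.06, 11.31 and 11.32 on the IsO arrays and 12.59, 12.66 and 12.80 on the Control arrays, with a clear gap between groups. The difference was -1.46 (SE 0.19) with limma's adjusted p = 0.0215, lower in 3 of 3 pairs. Leaving out any 1 array other than IsO 1 ended the call, with adjusted p from 0.0520 to 0.146 and a difference that stayed between -1.51 and -1.39. Under the remaining settings its adjusted p ran from 0.00468 to 0.0472. Its relative CCN1 (listed as CYR61) had levels of 8.28, 9.11 and 9.35 on the IsO arrays and 10.42, 11.21 and 11.52 on the Control arrays. The CCN1 groups did not overlap, and its difference of -2.14 (SE 0.40) had a limma adjusted p = 0.0717, against 0.00689 with the block and 0.0275 on the arrays numbered 2 and 3. Over all alternatives the CCN1 adjusted p ran from 0.00689 to 0.297. IGFBPL1, another secreted protein with an IGFBP-type domain, differed by 0.97 (SE 0.33, limma adjusted p = 0.359).

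H19, the imprinted RNA gene that shares regulation with IGF2 and lies near it on chromosome 11, was above background on the 3 IsO arrays and on no Control array. Its level was 6.19, 6.24 and 6.22 on the IsO arrays and 4.14, 4.36 and 4.10 on the Control arrays. The row entered the tests through the IsO arrays alone. In the main setting H19 was at least 1.39-fold higher in IsO cells, taking as the Control value the dimmest 1-probe signal counted as detected. The limma adjusted p = 0.00539 belongs to the fitted difference of 2.02, against Control values not above background, and not to this bound. IGF2 itself was not above background on these arrays. The H19 call was absent without background correction and in the authors' processed table (adjusted p = 0.0784 in both), with the background from all rows (0.9996), and without IsO 2 (0.0597) or Control 3 (0.0560). The fitted H19 difference was 0.57 without background correction or in the authors' table. It was 0.02 with the background from all rows, so the bound holds for the main setting and not for every setting.

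Among the genes that control binding proteins, STC1, an inhibitor of the PAPPA proteases, had levels of 9.42, 7.82 and 7.20 on the IsO arrays and 6.95, 5.60 and 4.97 on the Control arrays, of which 1 was above background. STC1 was highest on the arrays numbered 1 in both groups, and the groups did not overlap. Its difference of 2.31 (SE 0.71) had a limma adjusted p = 0.286, against 0.00698 with the block and 0.0725 on the arrays numbered 2 and 3. The STC1 difference was 1.24 with no background correction or in the authors' table and 1.62 without IsO 1. PAPPA, PAPPA2 and ADAM12, proteases that cut IGFBPs, were above background on no array. HTRA1 and CTSD, proteases listed in the same role, were above background on all 6 arrays, as was STC2, a relative of STC1. HTRA1, CTSD and STC2 differed by 0.18, 0.19 and 0.11 (limma adjusted p = 0.953, 0.926 and 0.974).

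The other receptors and the adaptors gave no call. IGF2R, which clears IGF2 and does not signal as a kinase, differed by -0.38 (limma adjusted p = 0.845). INS, the insulin gene, was above background on 2 IsO arrays, INSR on 1 IsO array and INSRR on 1 Control array, so these were not tested. Of the adaptors, SOCS2, a feedback inhibitor of growth hormone signalling, differed by -0.91 (limma adjusted p = 0.220) and SHC1 by 0.73 (0.190). The SHC1 row combines several probes and had detection p-values below 0.05 on the 3 IsO arrays and on no Control array. It therefore entered the tests through the IsO arrays alone. IRS4 was above background on the 3 Control arrays and on no IsO array, so it entered the tests through the Control arrays alone. It differed by -0.67 (limma adjusted p = 0.352). The IRS4 difference was -0.22 without background correction or in the authors' table and -0.008 with the background from all rows. No fold is given for IRS4. IRS1, IRS2, GRB2, GRB10 and SH2B1 differed by 0.18, 0.31, -0.26, 0.33 and -0.12, with limma adjusted p from 0.805 to 0.992. GAB1 and GRB14 were not tested. The RNA-binding proteins IGF2BP1, IGF2BP2 and IGF2BP3 differed by 0.24, 0.11 and 0.15 (limma adjusted p = 0.977, 0.965 and 0.995).

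Of the PI3K, AKT, mTOR and FOXO branch 16 of 24 genes were tested and of the RAS and MAP kinase branch 8 of 10, and none was called by limma at an adjusted p below 0.05, with 2 and 1 at an unadjusted p below 0.05, where 9.84% of all rows passed. PIK3R3, a regulatory subunit of PI3K, had levels of 7.59, 7.41 and 7.66 on the IsO arrays and 8.39, 8.62 and 8.48 on the Control arrays. Its groups did not overlap, and its difference of -0.95 (SE 0.18) had a limma adjusted p = 0.0857, against 0.0466 with the block and 0.0757 on the arrays numbered 2 and 3. With the background from all rows the PIK3R3 difference was -2.48 (limma adjusted p = 0.0472).

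**Figure D3:**
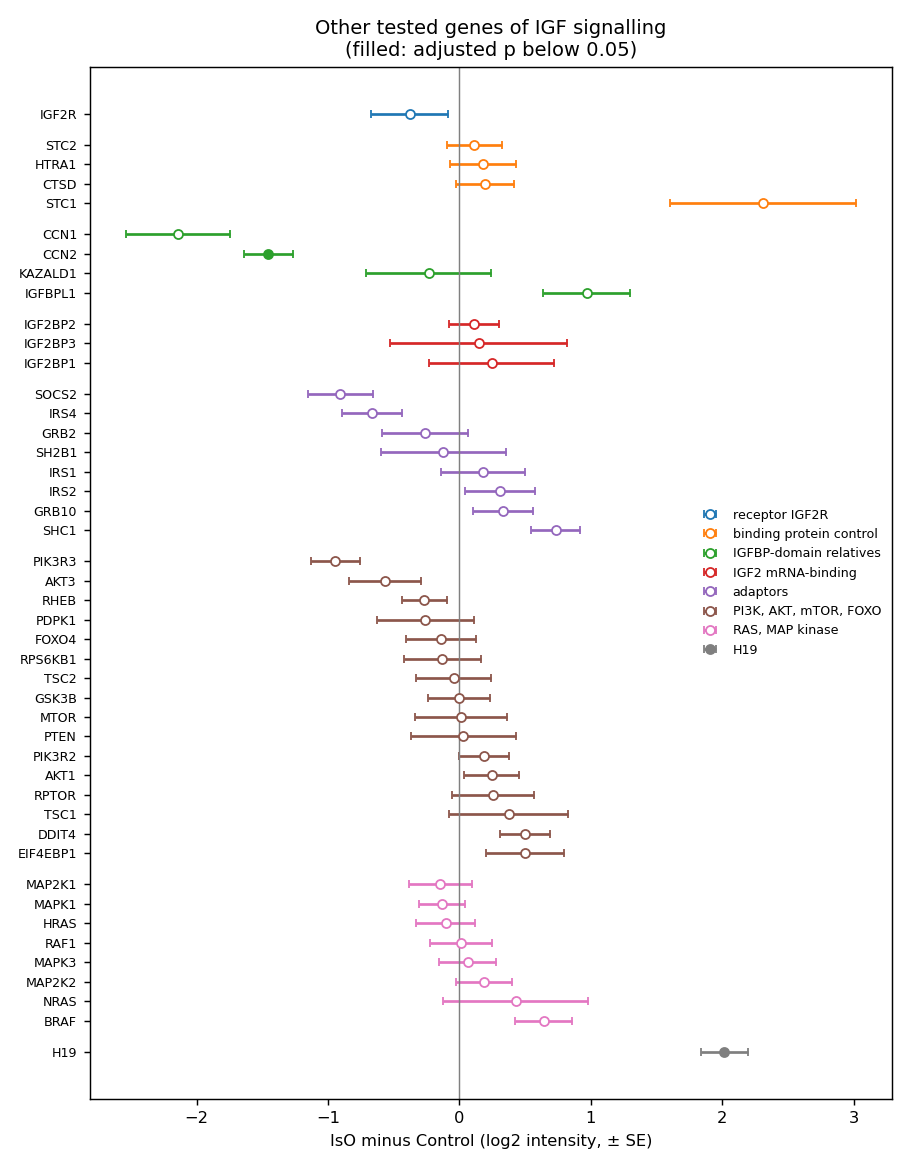
IsO minus Control difference in log2 intensity with its SE (horizontal axis) for the 45 tested genes of the IGF signalling list, coloured by role. Filled points passed the limma test: CCN2 at -1.46 and H19 at 2.02, where the H19 value is fitted against Control arrays not above background and is no fold.

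The tested rows most like each member were taken by the root mean square distance between levels centred on each row's mean, over the 6 arrays. For IGFBP3 they were FEZF1 (0.159), KLK3 (0.336) and CCKBR (0.362). On the IsO arrays FEZF1 (4.07, 4.96 and 5.56) and KLK3 (4.27, 4.66 and 5.46) lay below the lowest level of a detected 1-probe row. The distances also include the IsO against Control difference that chose IGFBP3, so nothing further is read from these rows. For IGFBP7 they were XRCC6BP1, now named ATP23 (0.0437), SPNS2 (0.0486) and an unnamed row. IGFBP6 had the next largest difference, but it was above background on 2 of 6 arrays, so its pattern mostly follows background values and no rows like it are named.

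Several IGFBPs are also made by mesenchymal, vascular and liver cells, so markers of these were set beside the members. Mesenchyme markers had summed intensities of 1579 to 3868 on IsO arrays and 731 to 924 on Control arrays. Of these 8 genes 7 were above background on some array and POSTN on none, and 1 of 4 tested was called higher (TWIST1, limma adjusted p = 0.0497). The mesenchyme sum of 3868 was that of IsO 1, and the sums on arrays not numbered 1 lay between 731 and 1764. Neural crest markers summed to 1725 to 10563 on IsO arrays and 621 to 2390 on Control arrays, with 0 of 5 tested called by limma. The upper end in each group was the array numbered 1, and the crest sums on the remaining arrays lay between 621 and 1792. The width of the crest ranges therefore rests largely on the arrays numbered 1. Pericyte markers summed to 8999 to 12276 on IsO arrays and 12638 to 21002.5 on Control arrays, with RGS5, CSPG4 and MYH11 above background on none. The 3 tested, PDGFRB, ACTA2 and TAGLN, differed by 0.12, -0.64 and -0.94 (limma adjusted p = 0.979, 0.492 and 0.390), with none called. Endothelial markers summed to 259 to 518 on IsO arrays and 530 to 668 on Control arrays, with PECAM1, CDH5, KDR and TIE1 above background on none. The 2 tested, TEK and VWF, differed by 0.88 and -1.10 (limma adjusted p = 0.821 and 0.169), so neither was called. Endoderm and liver markers summed to 78.2 to 357 on IsO arrays and 96.2 to 158 on Control arrays, with SOX17 above background on none. By limma 0 of 3 tested were called. Markers of neural progenitors and young neurons summed to 49554 to 79793 on IsO arrays and 91677 to 124637 on Control arrays, with 1 of 8 tested called lower (SOX2, limma adjusted p = 0.0444) and 0 called higher. The other progenitor genes tested, PAX6, HES5, NES and SOX3, differed by -2.82, -1.32, -0.89 and -0.71, and the neuronal genes NEUROG2, TUBB3 and DCX by 0.55, 0.51 and 0.38, with limma adjusted p from 0.0537 to 0.859. Roof plate and choroid plexus markers summed to 624 to 1021 on IsO arrays and 734 to 1040 on Control arrays. Of 3 tested, KCNJ13 was called lower (limma adjusted p = 0.0260) and entered through the Control arrays alone. LMX1A and CLIC6 differed by 0.82 and 0.89 without a call. Pluripotent cell markers summed to 35196 to 38996 on IsO arrays and 32790 to 37676 on Control arrays. Of these, LIN28A and DPPA4 were tested and not called. The part of these cell types in the levels of IGFBP3, IGFBP2 and IGFBP7 was not tested.

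The members' differences were recomputed under 18 other settings. Of these, the other filters, the variance trend and the replicate block leave the levels unchanged, so they repeat the main difference. The IGFBP3 difference ranged from -4.98 to -2.78, that of IGFBP2 from 0.40 to 0.49 and that of IGFBP7 from 0.42 to 1.00, with the sign kept in each. The most negative IGFBP3 value came from taking the background from all rows. The IGFBP4 difference ranged from -0.15 to 0.32 and so had no settled sign.

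**Figure D4:**
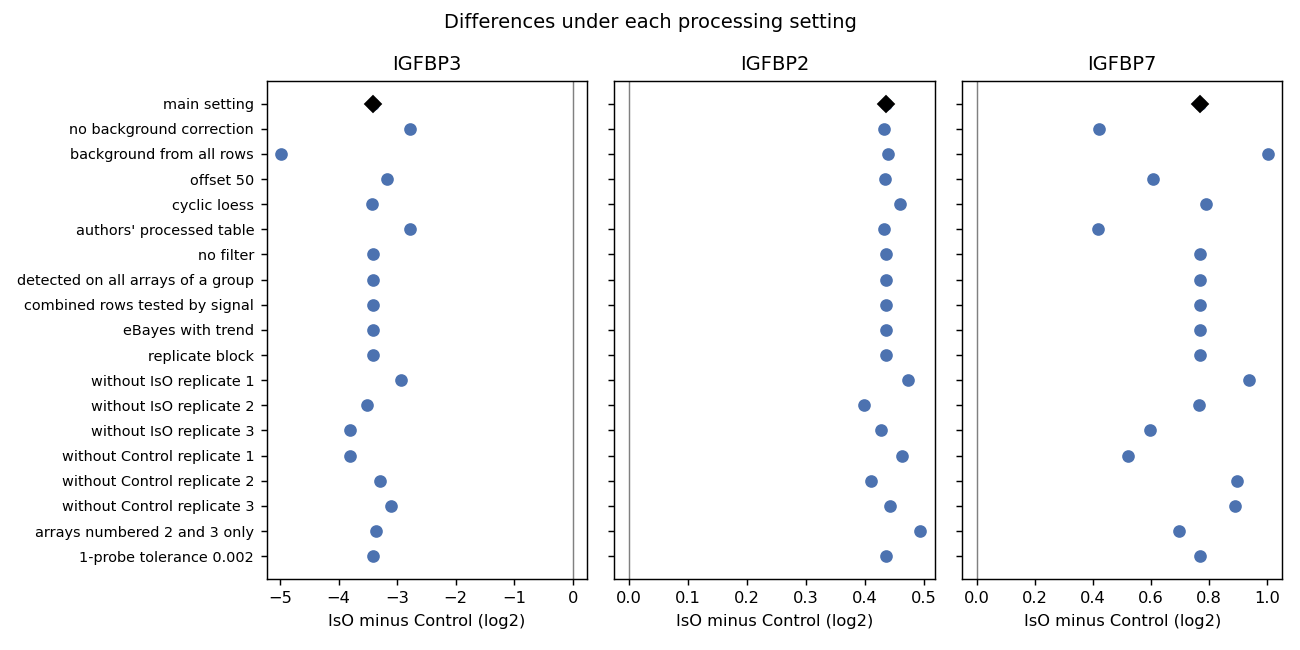
IsO minus Control difference in log2 intensity (horizontal axes, each with its own range) of IGFBP3, IGFBP2 and IGFBP7 under the main setting (diamond) and the 18 others (points, one per row). IGFBP3 lies between -4.98 and -2.78, IGFBP2 between 0.40 and 0.49 and IGFBP7 between 0.42 and 1.00. Points of the filter, variance trend and replicate block settings repeat the main value by construction.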

How the data were processed

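Total RNA of 6 H9-derived samples (3 IsO, 3 Control) was measured on Illumina bead arrays. The authors deposited linear intensity values with no background subtracted, 1 row per gene name, each followed by a detection p-value, per the file headers. The submitters' processing notes list GenomeStudio 2011.1. The genome build and scanner steps are not given in the sources used here. A second deposited table holds log2 values, and they differed from quantile-normalised log2 intensities by at most 0.000408. The deposited p-values of 27312 rows were multiples of the spacing set by 770 negative controls within 0.001 (1-probe rows), and 7380 rows combine probes.

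From the intensities, background was estimated from the detection p-values of 1-probe rows, corrected by normexp (offset 16), quantile-normalised and taken to log2 with limma 3.58.1 in R 4.3.3. Differences were fitted with lmFit and eBayes over 14548 rows with detection p below 0.05 on at least 3 of 6 arrays, and p-values were adjusted by Benjamini-Hochberg over all of them, called below 0.05. The scripts were tested on simulated data. Same-numbered arrays deviated together from their group means (correlations 0.846, 0.345 and 0.608), so the numbers were treated as pairing the samples. IsO 2 and IsO 3 correlated somewhat better with Control 3 and Control 2 (0.42 and 0.664) than with their own number. The correlations therefore do not establish the arrays numbered 2 and 3 as pairs, and the pair differences and block results rest on the numbers as given. A fit with the number as a block was an alternative. Precision is limited by how few arrays there are.

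The members, gene lists and markers were chosen with earlier results of these data known. Named were all members, the called genes of the IGF list, its receptors, adaptors and RNA-binding proteins, and the 3 nearest rows of the 3 members with the largest absolute difference, except those of IGFBP6, left out because most of its values were background. CCN1, STC1, STC2, HTRA1, CTSD, PIK3R3 and IGFBPL1 were named after their values were seen. All 149 listed genes had a row, 8 under an older name. Alternatives were other background corrections, offsets, normalisations, filters and variance models, the authors' table, the replicate block and leaving out each array. Using the arrays numbered 2 and 3 alone, and a tolerance of 0.002 for 1-probe rows, were added after seeing the data.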

Additional observations from a re-analysis of the deposited data

How the results depend on the processing

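Under 18 alternatives, 177 of 180 differences of the members moved by less than the spread between replicates and 3 by more. That count includes the filter, variance trend and replicate block settings, which leave the levels unchanged and so could not move a difference. The IGFBP3 call was absent in 8 of the 18. Of 324 results for named list genes, 307 kept their side of the threshold, 10 lost a call (CCN2 and H19), 7 gained one and 0 reversed a called direction. STC2, HTRA1 and CTSD are not in that count. Over all rows 181 were called, against 637 with the replicate block and 48 to 141 when 1 array was left out. The IGF signalling list gave 2 calls (11 of 45 genes at an unadjusted p below 0.05 by limma, against 9.84% of all rows), against 1 with no background correction or with the authors' processed table, 5 with the replicate block, and 0 to 2 when 1 array was left out. It gave 0 without IsO 2 or without Control 3, and 1 without IsO 3, Control 1 or Control 2. On the arrays numbered 2 and 3 the list gave 3 calls. The array number test called 2 members, against 0 with the background from all rows, 1 with cyclic loess and 0 with no filter. Beyond the calls given with STC1, CCN1 and PIK3R3, the block changed no call of a named list gene, and the cause of these changes was not tested. Leaving out an array was not run for the array number test, since a number then lacks its pair. With 3 arrays per group and values near background, the signals of IGF1, IGF2, IGFBP6 and the Control arrays for H19 give bounds or no fold.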

Other observations

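Other rows of the table carry IGF names without belonging to the system described. None of the 6 was tested. IGF2AS, the antisense RNA gene at the IGF2 locus, was above background on 2 IsO arrays and on no Control array. IGFL3 was above background on 1 IsO array and 1 Control array, and IGFL1, IGFL2, IGFL4 and IGFN1 on none.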
